A study of Mus musculus with 12 samples.

Results

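Glutamate carries most fast excitation in the cortex, and the genes described here encode the receptors that receive it and the proteins that hold those receptors at the synapse. They were 36 genes chosen by name from 9 groups of known role. The groups were the AMPA, NMDA and kainate receptor subunits, the metabotropic receptors, a delta receptor, the membrane-associated guanylate kinase scaffolds, the Shank and Homer scaffolds, and a set of linkers, AMPA receptor auxiliary subunits and a synaptic adhesion protein. They were picked by known role and not by a cut on measured values, but with earlier results of these data known. Of the 36 genes, 32 were measured by the rule used for every gene, out of 11449 genes measured in all.

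RNA had been measured on 12 Affymetrix arrays from mice of strain 129/Sv, 3 arrays in each of 4 groups. The groups were Qkf gt/gt mutant adult dorsal cerebral cortex, wild-type adult dorsal cerebral cortex, Qkf gt/gt mutant dorsal telencephalon at stage E12.5, and wild-type dorsal telencephalon at that stage. Qkf is another name of Kat6b, a gene for a histone acetyltransferase, and gt/gt denotes a gene-trap allele on both chromosomes. The adults were males, and mutants 1, 2 and 3 were 155, 112 and 99 days old, against 155, 112 and 101 days for wild types 1, 2 and 3. The label of each adult array names 1 mouse. Mutant embryo 1 and wild-type embryo 1 came from one pair of parents and the other 4 embryos from another, and the labels do not say whether each embryonic array held a single embryo. Values are log2 expression values, so that a difference of 1 is a change of 2-fold.

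AMPA receptors are ion channels that open for milliseconds and carry the bulk of the excitatory current, NMDA receptors admit calcium and need both glutamate and depolarization, and kainate receptors tune release and excitability. Metabotropic receptors act through G proteins and not through a pore. On the inner face of the synapse, PSD-95 and its relatives bind receptor tails, Dlgap1 links them to Shank proteins, and Homer proteins tie Shank to metabotropic receptors. The tissue at E12.5 consists largely of dividing progenitors and the first neurons, before most cortical synapses form.

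Kat6b, the check of the labels, stood at 7.25, 7.17 and 6.92 in adult mutants against 9.68, 9.35 and 9.72 in adult wild types (log2 difference -2.47, SE 0.29, limma adjusted p = 0.017). In embryos it stood at 6.22, 7.24 and 7.72 in mutants against 11.28, 11.40 and 11.42 in wild types (log2 difference -4.31, adjusted p = 0.000191). The position of its probes with respect to the gene trap was not worked out. Array medians ran from 3.64 to 3.74, and the lowest value on the arrays was 2.19. The actin control, in which a large 3 prime minus 5 prime difference is a sign of RNA degradation, stood at 1.91 and 1.47 in adult mutants 1 and 2, against 1.06 to 1.13 in the other 4 adults. The array of mutant embryo 1 carried a later date in its label than the other 5 embryonic arrays. The list of 10 neuron markers averaged 12.02 to 12.07 in adult mutants and 12.02 to 12.11 in adult wild types, and 8.89 to 9.01 in mutant embryos and 8.97 to 9.18 in wild-type embryos. The list of 9 progenitor markers averaged 5.88 to 5.91 in adult mutants and 5.80 to 5.87 in adult wild types. In embryos it averaged 11.44 to 11.54 in mutants and 11.44 to 11.45 in wild types, so that both labelled tissues showed their defining markers.

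Every one of the 36 genes was looked for. The platform annotation lists 74 probe sets, short groups of probes for 1 transcript, under 34 of the names, and no probe set is listed there under Grin1 or Shank2. Of those probe sets 56 were over a log2 value of 4 on at least 3 arrays, the minimum used for all genes, and the one with the highest mean stood for its gene. The single probe sets of Grin2a and Shank1 lay at their lowest value on all 12 arrays, so that Grin1, Grin2a, Shank1 and Shank2 have no level here. In adults 31 of the 32 measured genes were over 4 on at least 3 arrays, with Homer3 over 4 on 0 adult arrays. In embryos 18 were over 4 on at least 3 arrays, 4 on 1 or 2 arrays, and 10 on none, each by the probe set that stands for it. Those 14 genes passed the minimum only through the adult arrays, which favours a higher value in adults. Counts of stage differences below therefore describe the genes and support nothing, and neither do the stage calls and p-values of those 14. The same holds in the other direction for Homer3, which passed only through the embryonic arrays. The probe sets of different genes differ in affinity, so values are compared between groups and not between genes.

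**Figure D1:**
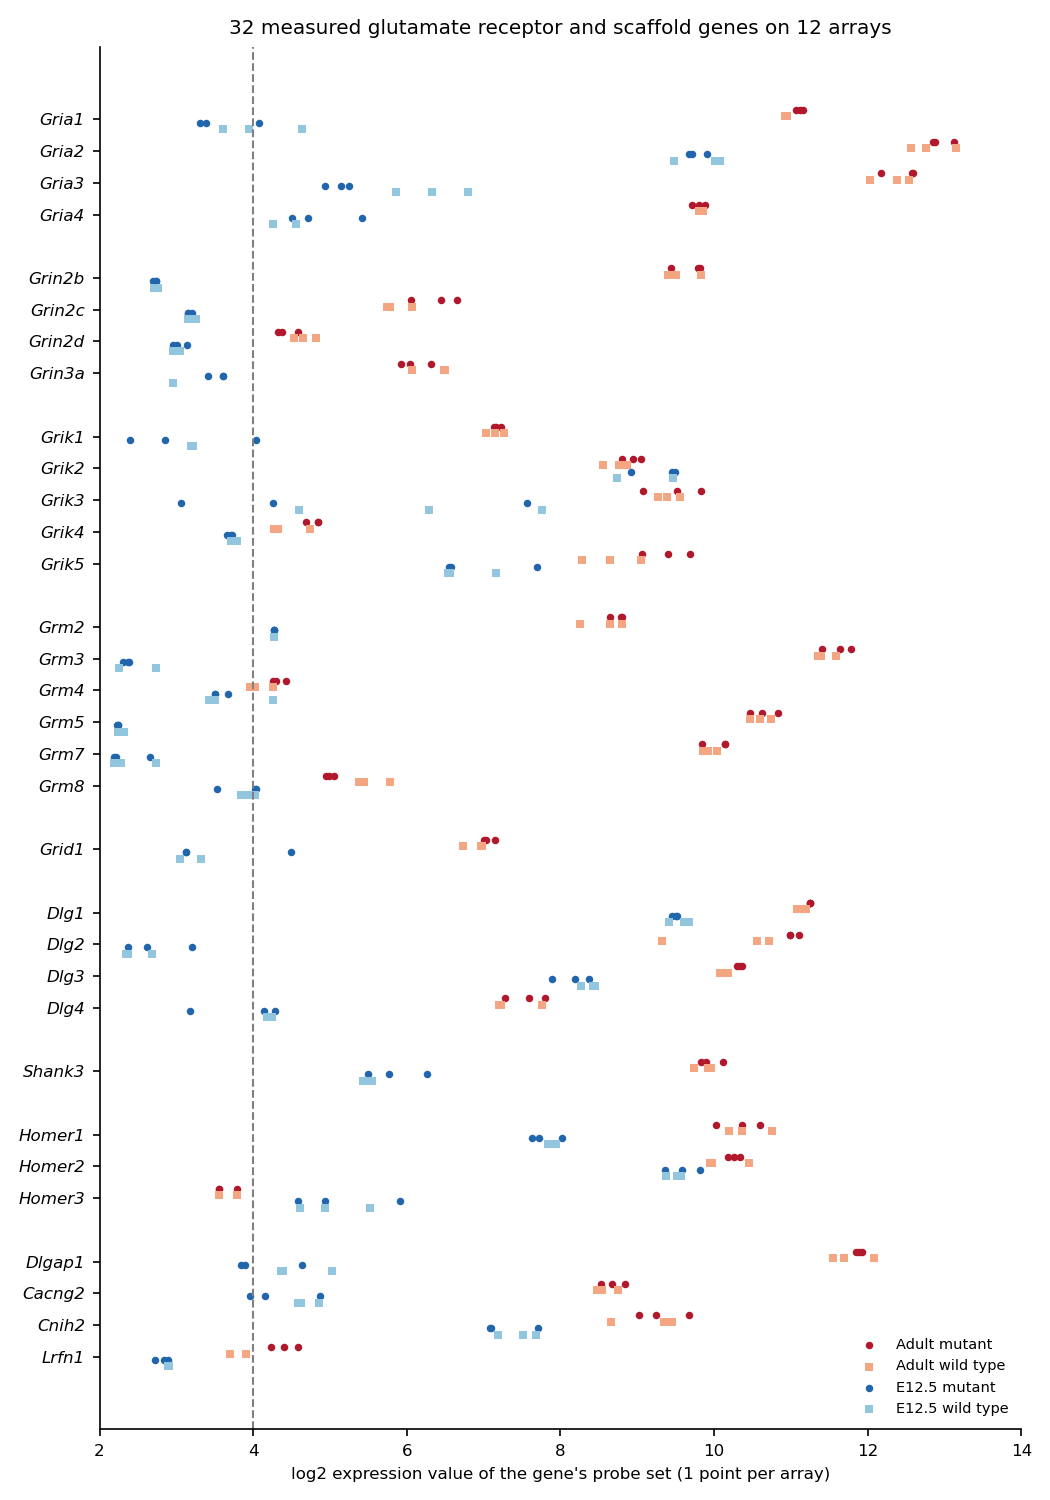
Log2 expression value (horizontal axis) of the probe set that stands for each of the 32 measured genes, with 1 point per array and the 4 groups by colour and shape; the dashed line marks the minimum of 4. In 29 genes the adult wild types were called higher than the embryonic ones, where 38.4% of all genes were. Homer3 and Grik2 were called lower, where 43% of all genes were. In most genes the mutant and wild-type points of 1 stage lie close together next to the distance between the stages.

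Adult cortex had more RNA of nearly all of these genes than embryonic telencephalon. A gene was called where limma's adjusted p, over all 11449 genes, was under 0.05. In wild types 29 of the 32 were called higher in adults, where 38.4% of all genes were, and 2 were called lower, where 43% of all genes were. Their median log2 difference was 3.19, against -0.08 over all genes. In mutants 30 were called higher, against 39.5% of all genes, and 1 lower, against 42.2%, with a median of 3.35 against -0.05, and 29 genes were called higher in both genotypes. Adult and embryonic arrays were of separate array sets. Stage, tissue, age and array set thus changed together, and they cannot be told apart. Sex differed in part, since all adults were males while some embryos had high Xist, which marks females. In such bulk tissue, fewer cells of a type and less RNA per cell cannot be told apart either.

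All 4 AMPA receptor subunit genes were higher in adults, and they differed in how much of them was already there in the embryo. Gria2, whose protein makes the channel impermeable to calcium, stood at 12.87, 13.12 and 12.86 in adult mutants, 12.75, 12.56 and 13.15 in adult wild types, 9.67, 9.90 and 9.71 in mutant embryos and 9.48, 10.08 and 10.02 in wild-type embryos. It was thus well over the minimum in every embryo, and its wild-type difference was 2.96 (SE 0.18, a 7.79-fold change, adjusted p = 3.41e-08). Gria1, the subunit inserted during synaptic strengthening, stood at 11.12, 11.07 and 11.16 in adult mutants, 10.93, 10.94 and 10.93 in adult wild types, 3.31, 4.07 and 3.39 in mutant embryos and 3.60, 4.63 and 3.95 in wild-type embryos. Its embryonic values straddled the minimum, and its difference was 6.88 (SE 0.25, adjusted p = 2.92e-10). Gria1 passed the minimum only through the adult arrays, so that p-value supports nothing. The differences of Gria3 (5.99) and Gria4 (5.37) lay between, with every embryo over 4 for both genes. No fold is given for genes whose embryonic values reach under 4, where differences are compressed.

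The promoter of Gria2, on chromosome 3, is shown because Gria2 is the AMPA subunit gene with the smallest stage difference, that of Grm2, on chromosome 9, because its 6 embryonic values lay within 0.005 of the lowest value of its probe set, and that of Homer3, on chromosome 8, because Homer3 had the larger of the negative stage differences. Each is a window from RefSeq (assembly GRCm38.p6) of 250 bases before to 50 bases after the start of the gene, read 5′ to 3′ on the gene's strand. The windows are chr3:80802786-80803085 on the minus strand, chr9:106656060-106656359 on the minus strand and chr8:70282749-70283048 on the plus strand. Capitals mark matches to TTCAGCACC or GGACAGC on either strand, the left and right parts of the RE1 element bound by Rest, a repressor of neuronal genes outside neurons.
Gria2: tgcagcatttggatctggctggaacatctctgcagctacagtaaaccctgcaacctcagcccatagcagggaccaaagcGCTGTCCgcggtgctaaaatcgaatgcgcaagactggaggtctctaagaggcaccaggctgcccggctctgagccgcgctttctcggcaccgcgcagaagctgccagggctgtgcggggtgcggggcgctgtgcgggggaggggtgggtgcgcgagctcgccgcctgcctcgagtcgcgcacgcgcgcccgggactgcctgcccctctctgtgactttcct
Grm2: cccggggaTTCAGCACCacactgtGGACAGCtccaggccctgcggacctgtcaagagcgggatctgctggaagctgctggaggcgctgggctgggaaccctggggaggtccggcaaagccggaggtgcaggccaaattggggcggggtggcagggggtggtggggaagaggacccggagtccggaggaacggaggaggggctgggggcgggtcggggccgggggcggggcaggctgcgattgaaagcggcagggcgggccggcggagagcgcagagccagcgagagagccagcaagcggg
Homer3: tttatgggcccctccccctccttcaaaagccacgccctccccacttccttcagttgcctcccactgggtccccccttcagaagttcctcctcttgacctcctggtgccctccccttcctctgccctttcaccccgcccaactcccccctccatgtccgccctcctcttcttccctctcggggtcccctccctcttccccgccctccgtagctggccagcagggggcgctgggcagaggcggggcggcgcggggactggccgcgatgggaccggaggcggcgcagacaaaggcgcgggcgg

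Of the 36 genes, 24 had such a window, with 38 windows between them and a median GC content of 61%, against 52.7% over all 32841 windows. TTCAGCACC was found in 0.371% of all windows and, among these genes, in Grm2. GGACAGC was found in 6.56% of all windows and in Gria2, Grm2 and Homer2. The 2 parts in the Grm2 window lie 7 bases apart, and 14 windows, 0.0426% of all, hold both at any distance and on either strand. Only exact matches were counted. In the Gria2 window the marked match is followed by gcggtgctaaa. There ggtgctaaa differs by 1 letter from GGTGCTGAA, which is TTCAGCACC on the other strand, so Gria2 holds a near match to the left part as well. TGACGTCA, the cyclic AMP response element, was found in 1.79% of all windows and in 0 of these 38. A match is a run of letters and not a measured binding site. Rest itself stood at 4.51, 4.42 and 4.70 in adult mutants, 4.69, 4.14 and 4.10 in adult wild types, 8.68, 8.58 and 8.51 in mutant embryos and 8.63, 8.60 and 8.84 in wild-type embryos. Its wild-type difference was -4.38 (SE 0.15, limma adjusted p = 2.52e-10). That sign is opposite to 30 of the 32 genes, where 47.8% of all genes were positive. Among the 30 were Gria2, Grm2 and Homer2, and also genes whose windows held no match. Genes without a window were not searched. The part of Rest in the differences of the 32 genes was not tested.

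The 4 measured NMDA receptor subunit genes were all called higher in adults, where 38.4% of all genes were. The probe sets that stand for them were under 4 on every embryonic array. They passed the minimum only through the adult arrays, so these calls and their p-values support nothing. Grin2b, the subunit known from immature synapses, stood at 9.82, 9.79 and 9.43 in adult mutants and 9.83, 9.50 and 9.40 in adult wild types, and between 2.70 and 2.76 in all 6 embryos. Its embryos were nearly identical, and its wild-type difference was 6.84 (SE 0.13, adjusted p = 1.50e-12). A second Grin2b probe set stood at 4.37, 4.17 and 4.75 in mutant embryos and 3.91, 5.09 and 5.21 in wild-type embryos, over the minimum on 5 of the 6 arrays. It gave a difference of 2.37, so both the size of the difference and the detection of Grin2b in embryos depend on the probe set. Grin3a, a subunit that lowers calcium entry, differed by 3.39, Grin2c, best known from cerebellar granule cells, by 2.68 and Grin2d, best known from interneurons and brainstem, by 1.67.

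Kainate receptor genes had stage differences between -0.50 and 3.94 in wild types. Grik2 stood at 9.05, 8.94 and 8.80 in adult mutants, 8.86, 8.76 and 8.56 in adult wild types, 8.91, 9.49 and 9.45 in mutant embryos and 8.74, 9.47 and 9.47 in wild-type embryos. The adult values of both genotypes overlapped those of embryos of the first parents, and the wild-type difference was -0.50 (SE 0.21, adjusted p = 0.0462). That call ended under 15 of 25 alternatives. Among them were leaving out wild-type embryo 2 (-0.38, adjusted p = 0.158), wild-type embryo 3 (-0.38, adjusted p = 0.156), mutant embryo 3 (adjusted p = 0.0513) or any 1 of the adult arrays (adjusted p = 0.0544 to 0.138). A second Grik2 probe set gave 0.12. Grik1, Grik3 and Grik5 were higher in adults by 3.94, 3.18 and 1.91. Grik4 differed by 0.71 (SE 0.12, adjusted p = 0.000193), with values of 4.69, 4.84 and 4.85 in adult mutants, 4.28, 4.33 and 4.74 in adult wild types and 3.66 to 3.79 over all embryos. Grik4 was thus low in both tissues on this probe set. Grik1 and Grik4 passed the minimum only through the adult arrays, so their stage calls and p-values support nothing.

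Metabotropic receptor genes held the largest differences of the 32. Of these genes Grm3, Grm4, Grm5 and Grm7 passed the minimum only through the adult arrays, so their stage calls and p-values support nothing. Grm3, a receptor of group II found on astrocytes and neurons, stood at 11.78, 11.40 and 11.64 in adult mutants and 11.40, 11.35 and 11.59 in adult wild types, against 2.38, 2.38 and 2.31 in mutant embryos and 2.73, 2.25 and 2.25 in wild-type embryos. No adult came near an embryo, and the wild-type difference was 9.03 (SE 0.15, adjusted p = 3.92e-13). Grm5, the group I receptor bound by Homer, stood between 10.47 and 10.84 in adult mutants and between 10.47 and 10.74 in adult wild types, and between 2.23 and 2.32 in the embryos (difference 8.33, SE 0.11). Grm7, a presynaptic group III receptor, stood between 9.84 and 10.15 in adult mutants and between 9.85 and 10.04 in adult wild types, and between 2.19 and 2.74 in the embryos (difference 7.53). Grm2, the second group II receptor, stood at 8.80, 8.65 and 8.79 in adult mutants and 8.64, 8.26 and 8.80 in adult wild types. In all 6 embryos Grm2 was at 4.27, within 0.005 of the lowest value of that probe set, so its difference of 4.30 is against a value with no order below it. Grm8 differed by 1.60. Grm4 did not pass in wild types (0.35, adjusted p = 0.110; mutants 0.77, adjusted p = 0.00294). Grm4 stood at 4.43, 4.29 and 4.26 in adult mutants and 3.95, 4.26 and 4.03 in adult wild types, against 3.50, 3.67 and 3.50 in mutant embryos and 4.26, 3.43 and 3.50 in wild-type embryos. Wild-type embryo 1 was the 1 embryo over 4, and without it the wild-type difference was 0.62 (adjusted p = 0.000814). Grid1, a delta receptor that takes part in synapse adhesion, differed by 3.66 and also passed the minimum only through the adult arrays.

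All 4 membrane-associated guanylate kinase scaffold genes were called higher in adults, by 1.55 to 7.73, where 38.4% of all genes were called higher. Of these genes Dlg2 passed the minimum only through the adult arrays. Dlg1, the gene of SAP97, stood at 11.25, 11.24 and 11.25 in adult mutants, 11.08, 11.20 and 11.09 in adult wild types, 9.52, 9.45 and 9.51 in mutant embryos and 9.68, 9.41 and 9.61 in wild-type embryos (difference 1.55, SE 0.09, adjusted p = 2.21e-08). Every embryo was well over the minimum. Another Dlg1 probe set, 1445798_at, had the opposite sign, at 6.78, 6.69 and 7.27 in adult mutants and 6.54, 6.24 and 6.89 in adult wild types, against 8.03, 7.41 and 7.27 in mutant embryos and 7.98, 7.69 and 7.60 in wild-type embryos (wild-type difference -1.20). Dlg3, the gene of SAP102, a scaffold known from immature synapses, differed by 1.77 and stood at 7.89 or above in every embryo.

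Dlg4, the gene of PSD-95, the scaffold known from mature synapses, differed by 3.20 and stood between 3.18 and 4.28 in the embryos. Dlg2, the gene of PSD-93, stood at 10.99, 10.99 and 11.10 in adult mutants and 10.56, 10.71 and 9.33 in adult wild types, against 2.38, 3.21 and 2.62 in mutant embryos and 2.35, 2.38 and 2.68 in wild-type embryos (difference 7.73, SE 0.32). With the mean of its 2 probe sets the Dlg2 difference was 4.76. Dlgap1, the gene of the linker GKAP, stood at 11.92, 11.85 and 11.88 in adult mutants and 11.69, 11.54 and 12.08 in adult wild types, against 4.64, 3.90 and 3.84 in mutant embryos and 4.36, 5.03 and 4.39 in wild-type embryos (difference 7.18, SE 0.24). Shank3, which joins the receptor scaffolds to actin, differed by 4.40, a 21.1-fold change, with all embryos between 5.43 and 6.26. In wild types the adult and embryonic ranges of these 4 genes did not meet, with adults above, as for 40.1% of all genes.

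Homer genes differed in direction. Homer1 stood between 10.03 and 10.60 in adult mutants and between 10.19 and 10.76 in adult wild types, and was already at 7.62 to 8.02 in the embryos (difference 2.53, SE 0.18). Homer2 stood at 10.27, 10.19 and 10.34 in adult mutants and 9.97, 10.45 and 9.95 in adult wild types, against 9.37, 9.59 and 9.81 in mutant embryos and 9.38, 9.51 and 9.56 in wild-type embryos (difference 0.64, SE 0.15, adjusted p = 0.00218). A second Homer2 probe set gave 1.53, and the mean of both 1.09. Homer3, the form best known from cerebellar Purkinje cells, was higher in embryos. It stood at 3.55, 3.55 and 3.80 in adult mutants, 3.79, 3.55 and 3.55 in adult wild types, 4.93, 4.58 and 5.91 in mutant embryos and 5.52, 4.94 and 4.61 in wild-type embryos. Every embryo lay above every adult, and 4 of the adult values were within 0.005 of the lowest of that probe set. The wild-type difference was -1.39 (SE 0.31, limma adjusted p = 0.00134). Homer3 passed the minimum only through the embryos, which favours a lower value in adults, so the test supports nothing. With the 3 embryos of high Xist, which marks females, as a covariate the difference was -0.80.

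Of the remaining genes, Cacng2, the gene of the AMPA receptor auxiliary subunit stargazin, differed by 3.90 and Cnih2, a further AMPA receptor auxiliary subunit, by 1.69. Lrfn1, a synaptic adhesion protein that binds PSD-95, was at 4.23, 4.58 and 4.40 in adult mutants and 3.70, 3.70 and 3.91 in adult wild types, against 2.90, 2.72 and 2.84 in mutant embryos and 2.89, 2.90 and 2.89 in wild-type embryos (difference 0.87, SE 0.11, adjusted p = 1.52e-05). Adult wild types lay under 4 as well, so Lrfn1 passed the minimum only through the adult mutants, which favours a difference between the adult genotypes. Its stage call and p-value support nothing either. Of 15 genes with more than 1 probe set over the minimum, all probe sets of a gene shared the sign of the wild-type stage difference in 13, the exceptions being Dlg1 and Grik2. Averaging the probe sets of a gene moved the wild-type stage difference by over 1.5 times for Dlg1 (0.54), Dlg2, Grik2 (-0.19) and Homer2.

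In adult cortex none of the 32 genes passed the test between mutant and wild type, where 0.0524% of all genes did. Differences were small: 26 were under 0.3 in size, 0 were over 1, and the 95% interval lay within 1 either way for 29. They leaned upward, with 27 positive and 5 negative (84.4% positive, against 58.9% of all genes) and a median of 0.13, against 0.03 over all genes. At an unadjusted p under 0.05 limma gave 7 genes, 21.9% of the 32, against 4.54% of all genes. Lrfn1 was among them, and it passed the minimum only through the adult mutants. With a minimum of 5 limma gave 4 of 27 genes, 14.8%, against 4.4% of all genes. In 7 genes, Lrfn1 included, every mutant was above every wild type, against 6.73% of all genes, and in 1 every mutant was below, against 2.66%.

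The actin control differed in mutants 1 and 2. Leaving both out left mutant 3 alone against 3 wild types, so that the fit assumes it varies like the arrays of the other groups. There 3 genes (9.38%) had an unadjusted p under 0.05, against 5.59% of all genes, and 68.8% were positive, against 51.2% of all genes. That array also stood apart in the list of choroid plexus markers, which averaged 6.76 in mutant 3 against 4.46 and 4.63 in the other adult mutants and 4.24 to 4.84 in adult wild types (4 of 7 genes measured). The part of RNA quality in these differences was not tested further. The mean over the 32 genes was 8.75, 8.70 and 8.68 in adult mutants and 8.51, 8.57 and 8.61 in adult wild types. The list of 6 oligodendrocyte markers averaged 10.18, 10.35 and 10.17 in adult mutants and 10.61, 10.28 and 10.66 in adult wild types. The list of 5 endothelial markers averaged 5.73, 5.72 and 5.73 in adult mutants and 5.58, 5.67 and 5.26 in adult wild types, every mutant being above every wild type. The part of these 3 marker lists was not tested.

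**Figure D2:**
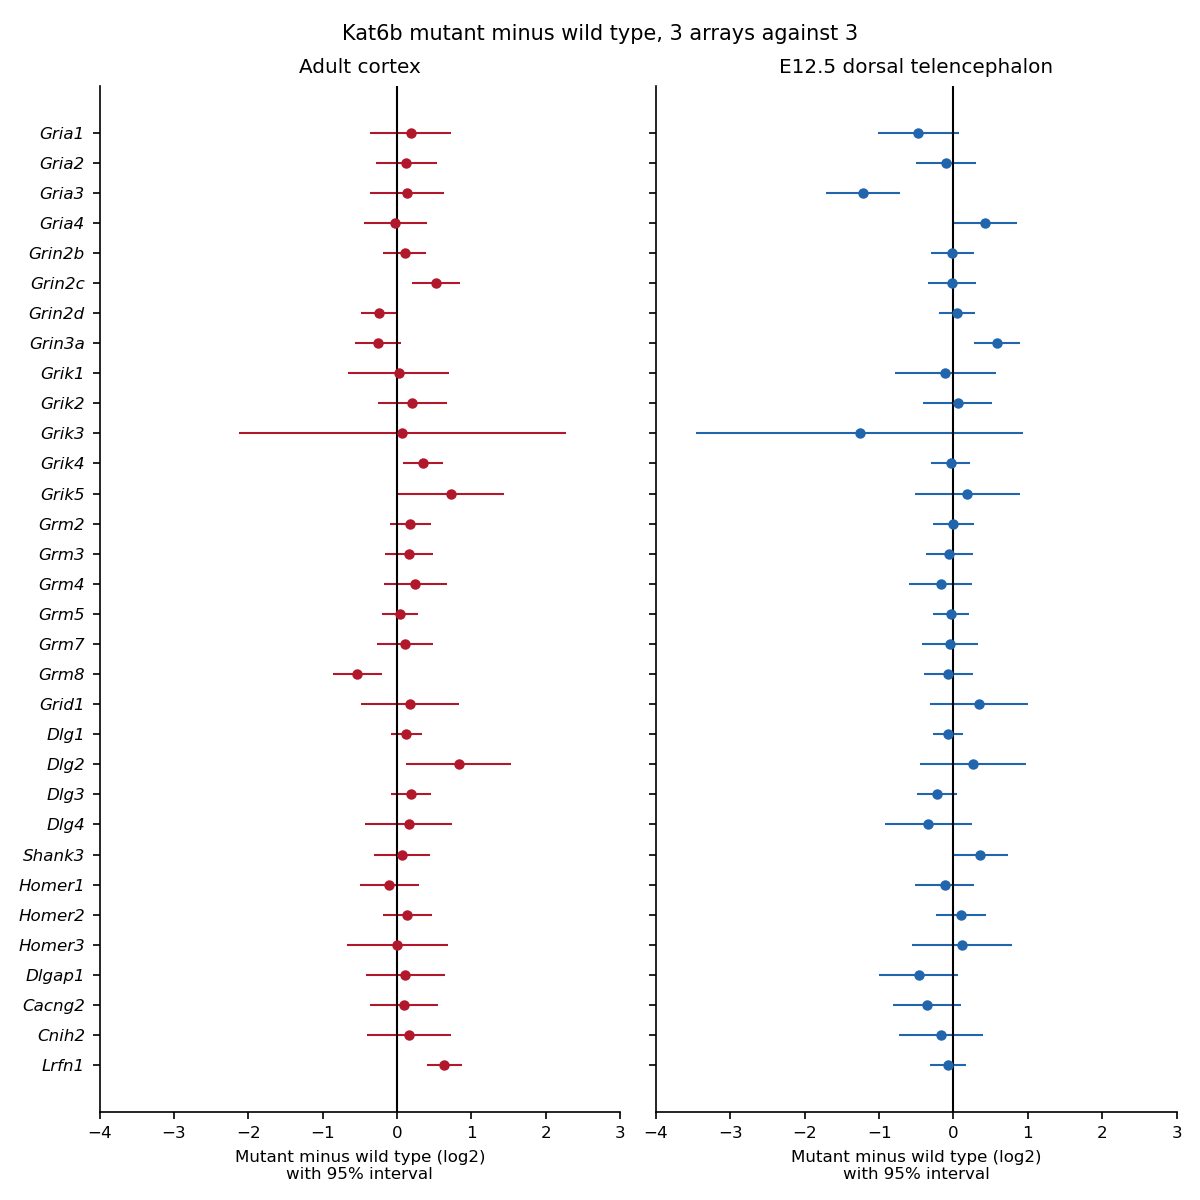
Mutant minus wild-type log2 difference with its 95% interval from limma for the 32 genes, in adult cortex (left) and E12.5 dorsal telencephalon (right), 3 arrays against 3. Most intervals span 0. That of Gria3 in the embryo runs from -1.71 to -0.72, and that of Lrfn1 in the adult from 0.40 to 0.88. Lrfn1 passed the minimum only through the adult mutants. The interval of Grik3 is the widest in both stages.

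Lrfn1 had the lowest p of the 32 in adults. It passed the minimum only through the adult mutants, the group in which it was higher, so its test and its separation support nothing. Its values, given above, did not overlap, with the lowest mutant at 4.23 and the highest wild type at 3.91 (difference 0.64, SE 0.11, adjusted p = 0.171). Over 25 alternatives the difference ran from 0.55 to 0.72 and the adjusted p from 0.0717 to 0.827, so the gene passed under none of them. Among these, tested with no minimum on low values it had an adjusted p of 0.133. Leaving out mutants 1 and 2 left it at 0.63.

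Among the receptor genes Grin2c stood at 6.66, 6.45 and 6.06 in adult mutants and 5.74, 5.78 and 6.06 in adult wild types (difference 0.53, SE 0.14, adjusted p = 0.700). Mutant 3 and wild type 3 were alike, the 2 high values belonged to mutants 1 and 2, and without those the difference was 0.20. Grik5, a kainate receptor subunit, stood at 9.68, 9.06 and 9.40 in mutants and 8.28, 8.65 and 9.04 in wild types (difference 0.72, SE 0.32). Its groups did not overlap, although mutant 2 and wild type 3 almost met. Grik4 differed by 0.35 (SE 0.12), with mutant 1 below wild type 3. Grm8, a presynaptic group III metabotropic receptor, ran the other way. It stood at 5.05, 4.99 and 4.94 in adult mutants and 5.38, 5.44 and 5.78 in adult wild types (difference -0.54, SE 0.15, adjusted p = 0.700), and was the 1 gene with every mutant below every wild type. Over 26 alternatives it ran from -0.61 to -0.41.

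Grin2d and Grin3a also had negative differences. Grin2d stood at 4.59, 4.37 and 4.32 in adult mutants and 4.82, 4.65 and 4.53 in adult wild types (-0.24, SE 0.11), and Grin3a at 5.93, 6.04 and 6.32 in mutants and 6.06, 6.48 and 6.50 in wild types (-0.25, SE 0.14). The groups overlapped for both, and without mutants 1 and 2 Grin3a was at -0.03.

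For Dlg2, whose values are given above, the mutants were all above the wild types (difference 0.83, SE 0.32, a 1.77-fold change), and wild type 3 was well below the other adults. Without wild type 3 the difference was 0.39. A second Dlg2 probe set, 1421199_at, stood at 5.84, 5.90 and 5.68 in mutants and 5.89, 6.02 and 5.92 in wild types, a difference of -0.14. Dlg1, Dlg3, Gria1 and Grid1 also had all mutants above all wild types, with differences between 0.13 and 0.18. On other probe sets the groups overlapped for Gria1 (0.08) and for Dlg1 (0.36 on 1445798_at and -0.07 on 1450768_at). The adjusted p was 1 for Grik4, Grik5, Grin2d, Grin3a, Dlg2 and every gene of the 32 not named with another value. In the adult contrast all probe sets of a gene shared a sign in 6 of the 15 genes with several.

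**Figure D3:**
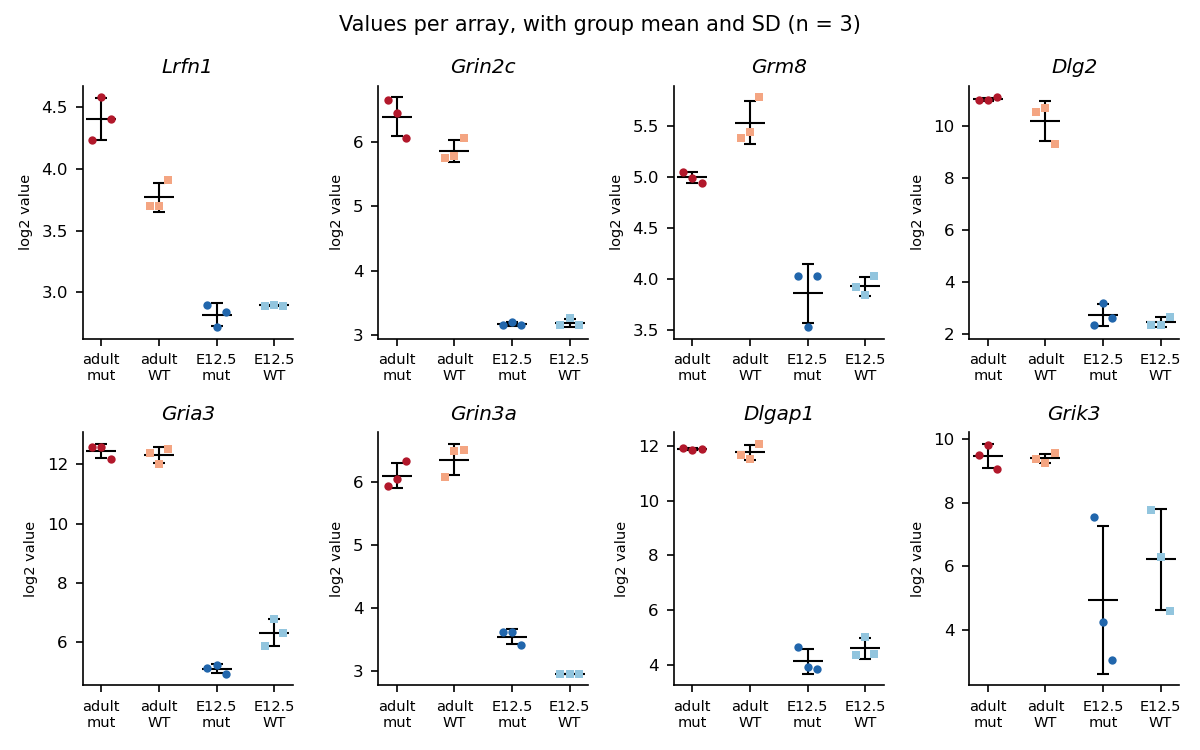
Log2 value per array (points), with the group mean and SD (n = 3), for 8 genes in adult mutants, adult wild types, E12.5 mutants and E12.5 wild types, each panel on its own axis, which does not start at 0. Lrfn1 and Grm8 separate the adult genotypes in opposite directions, and Gria3 separates the embryonic ones. Lrfn1 passed the minimum only through the adult mutants, so its separation supports nothing. Grik3 runs from 3.07 to 7.56 in mutant embryos and from 4.60 to 7.77 in wild-type embryos.

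In embryonic telencephalon 0 of the 32 genes passed, where 0.0349% of all genes did. There 10 differences were positive and 22 negative (31.2% positive, against 46.1% of all genes), with a median of -0.05, against -0.01 over all genes. Of the 32, 22 differences were under 0.3 in size and the 95% interval lay within 1 either way for 28. Among the 32 were 10 genes under 4 on every embryonic array, where differences are compressed. Their sizes, signs and intervals are limited by the lowest values of their probe sets, so these counts do not show a lack of change. At an unadjusted p under 0.05 limma gave 2 genes, 6.25%, against 4.51% of all genes, and with the parents as a replicate block it gave 6, 18.8%, against 6.47% of all genes, with none past the adjusted test. That count was 7 without mutant embryo 1, and 4 without mutant embryo 2 or mutant embryo 3. In 1 gene every mutant was above every wild type, against 3.23% of all genes, and in 1 every mutant was below, against 5.06%. The list of 6 astrocyte markers averaged 6.36, 6.66 and 6.29 in mutant embryos and 5.69, 6.06 and 5.93 in wild-type embryos. That of 7 microglia markers averaged 4.47, 4.88 and 4.59 in mutants and 4.21, 4.26 and 4.45 in wild types. For both lists every mutant was above every wild type, while the oligodendrocyte and endothelial lists overlapped. The part of these lists was not tested.

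Gria3, an AMPA receptor subunit gene on the X chromosome, had the lowest p of the 32. It stood at 5.14, 5.25 and 4.94 in mutant embryos and 5.86, 6.80 and 6.32 in wild-type embryos. The 3 mutants were all below the lowest wild type, and the difference was -1.22 (SE 0.23, 95% interval -1.71 to -0.72, a 2.33-fold change), with an adjusted p of 0.141. It passed under 2 of 26 alternatives, with array weights (-1.34, adjusted p = 0.013) and without wild-type embryo 1 (-1.45, adjusted p = 0.0422). With the replicate block the adjusted p was 0.263.

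A second Gria3 probe set, 1420563_at, was near its lowest values in embryos. It stood at 3.20, 3.60 and 2.73 in mutants and 2.90, 4.05 and 2.90 in wild types, and with the mean of both probe sets the difference was -0.66. Mutant embryo 3 and wild-type embryos 1 and 2 had high Xist, and with it as a covariate the Gria3 difference was -1.26 (adjusted p = 0.229). In adults the same probe set of Gria3 stood at 12.59, 12.58 and 12.17 in mutants and 12.39, 12.03 and 12.53 in wild types, so that the groups overlapped (difference 0.13).

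Other AMPA receptor genes differed by less. Gria1, whose embryonic values are given above, had a negative difference with overlapping groups (-0.47, SE 0.25), and Gria4 stood at 4.51, 5.42 and 4.72 in mutant embryos and 4.25, 4.55 and 4.55 in wild-type embryos (0.43, SE 0.19). The mutant of highest Gria4 was embryo 2, and without it the difference was 0.16. With the mean of its probe sets Gria4 differed by 0.08. Gria1 differed by -0.27 with the mean of its probe sets, -0.19 without wild-type embryo 2 and -0.71 without mutant embryo 2. Gria2 differed by -0.10 (SE 0.18).

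Grin3a stood at 3.61, 3.61 and 3.41 in mutant embryos and at 2.96 in all 3 wild-type embryos, the lowest value of that probe set (difference 0.58, SE 0.14, adjusted p = 0.358). Every value lay under the minimum of 4, and averaging its probe sets gave a difference of 0.19. No order can be read below the wild-type value. Shank3 stood at 5.49, 5.76 and 6.26 in mutant embryos and 5.43, 5.55 and 5.45 in wild-type embryos (0.36, SE 0.17), and the 2 highest values were those of mutants 2 and 3. Without mutant embryo 3 the Shank3 difference was 0.15.

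Dlgap1 (-0.47, SE 0.24), Dlg3 (-0.22, SE 0.12) and Cacng2 (-0.36, SE 0.21) had negative differences with overlapping groups. Dlg3 stood at 7.89, 8.19 and 8.38 in mutant embryos and 8.26, 8.45 and 8.42 in wild-type embryos. Cacng2 stood at 4.88, 3.95 and 4.15 in mutant embryos and 4.86, 4.58 and 4.62 in wild-type embryos. Embryo 1 of both genotypes had the highest Cacng2 values. All 3 sizes moved with single arrays. Dlgap1 was at -0.25 without wild-type embryo 2, -0.73 without mutant embryo 1 and -0.11 when its probe sets were averaged. Dlg3 was at -0.09 without mutant embryo 1 and -0.33 without mutant embryo 3. Cacng2 was at -0.17 without mutant embryo 2, -0.63 without mutant embryo 1 and 0.073 when averaged likewise. The adjusted p was 1 for each embryonic difference of the 32 genes other than those of Gria3 and Grin3a. As in adults, all probe sets of a gene shared a sign in 6 of 15 genes.

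Grik3 had the largest embryonic difference in size and the least certain. It stood at 7.56, 4.25 and 3.07 in mutant embryos and 7.77, 6.30 and 4.60 in wild-type embryos (-1.26, SE 1.00). Both embryos of the first parents were high, and the range within each genotype exceeded the difference between them. Among embryos of the first parents the mutant was below the wild type, and among those of the second both mutants were below both wild types. Dlx2, which encodes a ventral telencephalic homeobox protein, stood at 8.43, 3.28 and 3.31 in mutant embryos and 9.04, 5.80 and 3.20 in wild-type embryos, and the list of 10 interneuron markers averaged 5.57, 3.75 and 3.70 in mutants and 5.79, 4.62 and 3.70 in wild types. These values moved with Grik3, and their part in it was not tested.

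The effect of the mutation was then compared between the stages, as the adult difference minus the embryonic difference. For this 0 of the 32 genes passed, and 0% of all genes did. By unadjusted p under 0.05 limma gave 7 genes, 21.9%, against 5.5% of all genes. Here too Lrfn1 was among them, having passed the minimum only through the adult mutants. The lowest p belonged to Lrfn1 (0.71, SE 0.16, adjusted p = 0.441), Gria3 (1.35, SE 0.32, adjusted p = 0.532), Grin3a (-0.84, SE 0.20, adjusted p = 0.532), Grin2c (0.54, SE 0.20, adjusted p = 0.867) and Dlg3 (0.41, SE 0.17, adjusted p = 0.881). Of the 32, 25 were positive, 78.1%, against 58.9% of all genes.

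Subunit composition was followed as the difference between 2 genes on the same array, read only for its change between groups because the probe sets differ in affinity. Of 10 pairs of interest 6 could be formed, and the 4 that needed Grin1 or Grin2a could not. No p is given for them. In adults the pairs had similar means in both genotypes. Gria2 minus Gria1 averaged 1.83 ± 0.19 in adult mutants and 1.89 ± 0.31 in adult wild types (SD, n = 3 each), Dlg4 minus Dlg3 averaged -2.78 ± 0.25 in adult mutants and -2.75 ± 0.29 in adult wild types, and the means of the 6 pairs differed by at most 0.15 between adult genotypes. With the mean of each gene's probe sets that difference was -0.43 for Dlg4 minus Dlg3, -0.38 for Dlg4 minus Dlg1 and -0.26 for Gria3 minus Gria2. Without mutants 1 and 2 it was -0.57 for Homer1 minus Homer3, a pair in which Homer3 lay at or near the lowest value of its probe set in every adult.

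In embryos Gria3 minus Gria2 was at -4.53, -4.66 and -4.77 in mutants and -3.63, -3.28 and -3.70 in wild types. The genotypes did not overlap there, while adult mutants were at -0.28, -0.54 and -0.69 and adult wild types at -0.37, -0.54 and -0.62. Gria2 minus Gria4 was at 5.16, 4.49 and 4.99 in mutant embryos and 5.23, 5.53 and 5.46 in wild-type embryos, also without overlap. The difference of means was -1.12 for Gria3 minus Gria2, and it was -0.53 with the mean of each gene's probe sets.

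Between the stages, Gria2 minus Gria1 averaged 1.89 in adult wild types against 5.80 in wild-type embryos, a change toward Gria1. Dlg4 minus Dlg3 averaged -2.75 ± 0.29 in adult wild types against -4.17 ± 0.13 in wild-type embryos, and Dlg4 minus Dlg1 -3.72 ± 0.35 against -5.37 ± 0.12. The change was toward Dlg4 in both, by 1.42 against Dlg3 and by 1.64 against Dlg1 (2.89 against Dlg1 with the mean of each gene's probe sets). Embryonic values ran from 3.18 to 4.28 for Dlg4 and from 3.31 to 4.63 for Gria1. Both reach under 4, where differences are compressed, so the sizes of these stage changes are limited as well. Homer1 minus Homer3 averaged 6.81 ± 0.35 in adult wild types against 2.88 ± 0.52 in wild-type embryos, the adult value being a lower bound because of that lowest value. In mutants the stage changes of these 4 pairs were -4.34, 1.51, 1.93 and 4.05, of the same sign as in wild types.

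**Figure D4:**
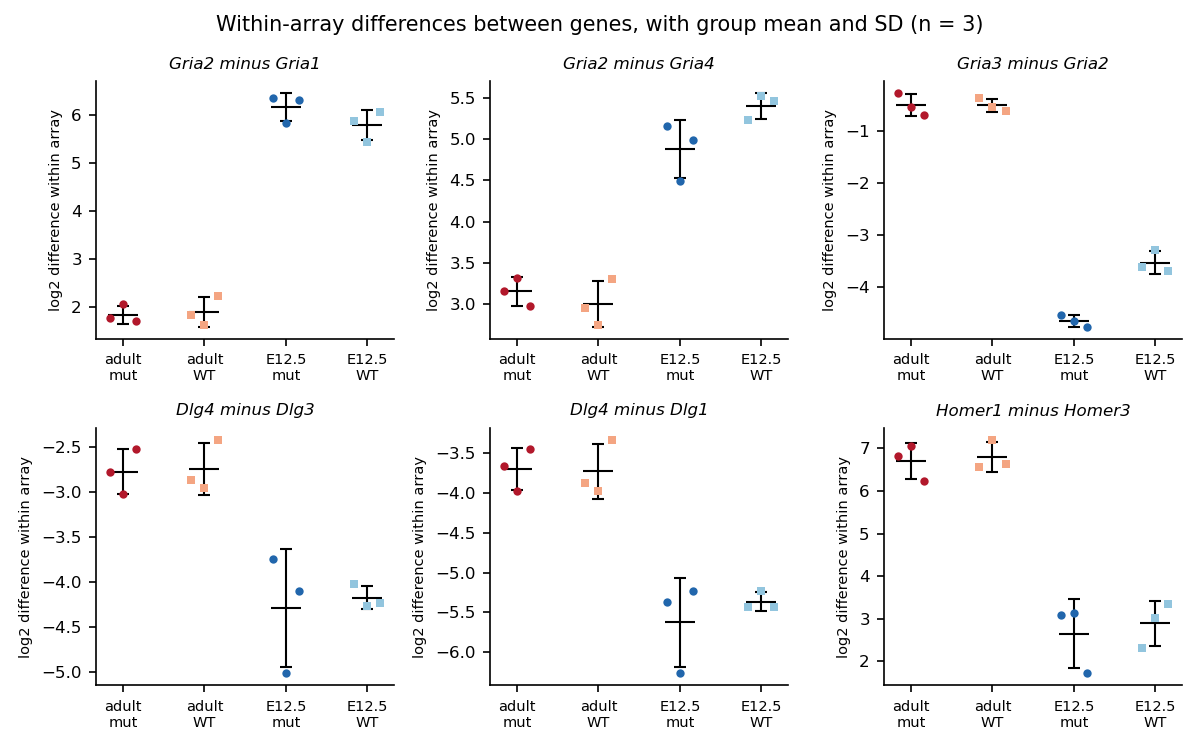
Within-array log2 difference between the genes of 6 pairs (points), with the group mean and SD (n = 3), in adult mutants, adult wild types, E12.5 mutants and E12.5 wild types, each panel on its own axis. The stages separate in every pair, and among embryos Gria3 minus Gria2 lies near -4.65 in mutants and -3.54 in wild types.

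One Homer1 probe set, 1436387_at, varied among adults far more than the others of its gene, and it was chosen for description after its values had been seen. It stood at 9.86, 11.24 and 9.28 in adult mutants and 8.41, 11.75 and 8.70 in adult wild types. The mouse of each genotype aged 112 days was the highest. The probe set that stands for Homer1 stood at 10.37, 10.60 and 10.03 in mutants and 10.36, 10.76 and 10.19 in wild types, with the same mice highest over a narrower range.

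Homer1 is known for a short form induced by neuronal activity, and activity-induced genes were set beside it. Fos stood at 6.90, 8.37 and 7.97 in adult mutants and 7.03, 8.51 and 8.13 in adult wild types. Arc stood at 6.43, 8.48 and 7.79 in mutants and 6.28, 8.22 and 7.35 in wild types. For both genes the mice of 112 days were highest and those of 155 days lowest in each genotype, and both genotypes kept that order. Npas4 stood at 5.61, 6.61 and 7.67 in mutants and 4.56, 6.25 and 7.54 in wild types, highest in the youngest mice. Of 10 such genes listed 8 were measured. In both genotypes 4 of them (Fos, Arc, Egr1 and Bdnf) were highest at 112 days and 3 (Npas4, Junb and Dusp1) in the youngest mice, and in 1 (Nr4a1) the genotypes differed. The transcript form that 1436387_at detects was not looked up, and age, day of dissection and handling were not tested.

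**Figure D5:**
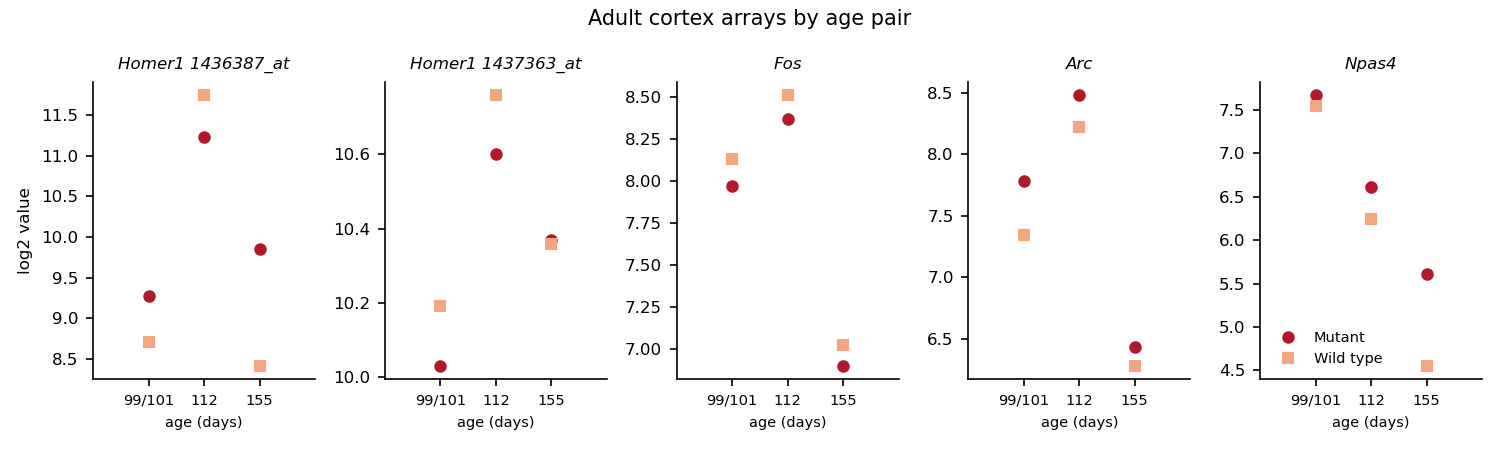
Log2 value on the 6 adult arrays by age in days (99 for the mutant and 101 for the wild type in the youngest pair) for 2 Homer1 probe sets, Fos, Arc and Npas4, each panel on its own axis, with mutants as circles and wild types as squares. The 112-day mice are highest for both Homer1 probe sets, Fos and Arc, and the youngest for Npas4.

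A wider list of synaptic genes, 40 of excitatory synapses outside the 36 and 7 of glutamate transport and metabolism, was described in the same way, with 35 and 6 measured. In adult mutants 25 of the 35 were positive (71.4%, against 58.9% of all genes) with 0 called, where 0.0524% of all genes were. The lowest p belonged to Dlgap3, a relative of Dlgap1, at 9.86, 9.59 and 9.99 in adult mutants and 9.00, 9.18 and 9.60 in adult wild types (0.55, SE 0.15, adjusted p = 0.688), with mutant 2 below wild type 3. Gsg1l, an AMPA receptor auxiliary subunit (0.54), and the vesicular glutamate transporter gene Slc17a6 (0.27) followed.

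In embryos 13 of the 35 were positive (37.1%, against 46.1% of all genes) and 22 negative, with 0 called, where 0.0349% of all genes were. The lowest p belonged to Baiap2, a scaffold partner of PSD-95 (-0.54, SE 0.19, adjusted p = 0.796), Grip1, which binds AMPA receptors (-0.38), and the catenin gene Ctnnd2 (-0.28). Between the stages 28 of the 35 were called higher in adult wild types, where 38.4% of all genes were, and 3 lower, where 43% were. The transporter genes Slc1a2 (7.58) and Slc17a7 (6.56) and the kainate receptor auxiliary gene Neto1 (6.73) had the largest positive differences. Cacng4, an AMPA receptor auxiliary subunit (-2.61), Slc17a6 (-1.13) and the adhesion gene Lrfn4 (-0.83) had the largest negative ones. The auxiliary subunit Cacng4 was thus higher in embryos where its relative Cacng2 was higher in adults.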

How the data were processed

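RNA of 12 samples was hybridized to 12 Affymetrix arrays after a 2-cycle amplification, per the labels' protocols. The values deposited by the authors are log2 expression values per probe set, and the submitters' processing notes name GCRMA, which models background from probe sequence, with no version or settings given in the sources used here. Such values have a lowest level for each probe set, so differences of low genes are compressed. They were used as deposited.

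Of 45101 probe sets, 34945 had 1 gene symbol in the platform annotation. Those with a log2 value over 4 on at least 3 arrays were kept, and the probe set with the highest mean stood for each of 11449 genes. limma 3.58.1 in R 4.3.3 (lmFit, eBayes) was fitted over all genes and 12 arrays with 4 group means (8 residual degrees of freedom), with Benjamini-Hochberg adjustment over all genes and calls under 0.05. P-values measure the spread between these arrays, whose number limits the precision. The fit was tested on simulated data.

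The genes and lists were chosen with earlier results of these data known. Per-array values are given for the 8 lowest p in each mutant contrast, the 5 lowest in the difference between stages, the 6 highest and 6 lowest wild-type stage differences and genes whose probe sets disagreed in sign, and for other synaptic genes the 3 lowest p and the 3 stage differences at each end. Promoter windows came from RefSeq tables of GRCm38.p6. Alternatives changed the minimum, the choice among probe sets, the normalization, the stages fitted together, the weights of the arrays and the variance prior, added Xist or a replicate block, and left out each array in turn.

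Deviations from the group mean, over all genes, correlated at 0.14 to 0.51 between embryos of the same parents and at -0.36 to -0.23 between embryos of different parents, so the block for embryos rests on their labelled parents. Adults of like age correlated at 0.19, -0.01 and 0.27 and were not clearly paired.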

Additional observations from a re-analysis of the deposited data

How the results depend on the processing

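Over the alternatives run, 0 of the 32 genes passed in adult cortex and 0 for the difference between stages, and Cacng2 was the 1 named gene whose sign reversed, to 0.073 in embryos with the mean of its probe sets. In embryos 1 gene, Gria3, passed with array weights, and leaving out 1 array gave 0 to 1 (Gria3, without wild-type embryo 1). Genes with an unadjusted p under 0.05 in adults, 7 in the report, were 4 with a minimum of 5, 3 without mutants 1 and 2, and 5 to 7 on leaving out 1 array. In embryos, where the report has 2, they were 1 with the mean of probe sets, 4 with quantile normalization over 12 arrays or within each stage, 8 with array weights, 6 with the replicate block, 8 without both embryos of the first parents, and 2 to 7 on leaving out 1 array. Positive embryonic differences numbered 5 to 12 on leaving out 1 array, with 5 without mutant embryo 3. With the replicate block 0 genes passed in either mutant contrast or the difference between stages, and 31 passed between the stages in wild types and 32 in mutants. The block changed no other call. Quantile normalization over 12 arrays gave 78.1% positive adult differences, against 51.3% of all genes. With the mean of probe sets the wild-type stage changes of pairs were -4.72 for Gria2 minus Gria1, -3.24 for Gria2 minus Gria4, 3.78 for Gria3 minus Gria2 and 2.89 for Dlg4 minus Dlg1. The mutant differences were -0.26 in adults and -0.53 in embryos for Gria3 minus Gria2, and -0.43 for Dlg4 minus Dlg3 and -0.38 for Dlg4 minus Dlg1 in adults. Without mutants 1 and 2, Homer1 minus Homer3 differed by -0.57 in adults. Differences of genes whose embryonic values lie under 4 are limited by the lowest values of their probe sets, 3 arrays a group limit all others, and the causes of these changes were not tested.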
